A study of Mus musculus with 12 samples.

Results

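The ADAM and ADAMTS genes encode a family of zinc metalloproteases and their protease-free relatives. Members were taken by symbol from the mouse liver count table: every gene whose symbol is Adam, Adamts or Adamtsl followed by a digit, with pseudogene symbols left out. This gave 43 of the 24983 genes in the table, made up of 22 Adam, 16 Adamts and 5 Adamtsl genes. A further 14 symbols of the annotation that fit the same pattern were not analysed here. The 43 genes together took 0.0237% of all counts, and 28 of them passed the filter on low counts that was applied to all genes.

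ADAM proteins sit in the cell membrane and, where their protease is active, cut the outer part of other membrane proteins free, a step called shedding that releases cytokines, growth factors and receptors. ADAMTS proteins are secreted and carry thrombospondin repeats that hold them in the extracellular matrix, where they trim procollagens, cleave large proteoglycans or process clotting proteins. ADAMTS-like (ADAMTSL) proteins keep the repeats without the protease and bind matrix fibres. In the liver these proteins are known from inflammation, from the activation of stellate cells (the vitamin A-storing cells that turn into matrix-producing myofibroblasts) and from the turnover of scar matrix.

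The samples were livers of 12 C57BL/6J mice (given as strain C57BL/6 in the sample fields), in 4 groups of 3. The 3 pump groups were kept for 24 weeks on a diet used to bring on nonalcoholic steatohepatitis (NASH), with 40% of calories from fat and with saturated fat, trans-fat, fructose and cholesterol, and carried osmotic minipumps under the skin. The pumps gave nitro-oleic acid (OA-NO2) in polyethylene glycol, oleic acid (OA, the same fatty acid without the nitro group) in polyethylene glycol, or polyethylene glycol alone (vehicle), with the fatty acids infused at 5 mg/kg/day. The chow group ate standard chow for the same time, and its labels name no pump, so diet and pump cannot be told apart in any comparison with chow. Ear tags mark each library as a separate mouse. The labels give no age or sex.

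Total counts ran from 15972613 to 20613777 in 11 libraries and were 8462590 in chow replicate 1. CPM are counts scaled to a common library size by the trimmed mean of M values (TMM), except where stated. The sum of 8 hepatocyte markers was high in every group, from 79587 to 116809 CPM in OA-NO2, from 62254 to 108460 in OA, from 52877 to 69934 in vehicle and from 135729 to 168104 in chow, and no marker was at 0. Of the 8, 4 fell in vehicle over chow (Alb, Cps1, Hnf4a and Tat). On the first principal component of log CPM (46.4% of variance) OA replicate 3 stood at -13.48, away from the other OA libraries at 49.62 and 39.99 and beside the OA-NO2 libraries, so counts of calls are given with and without it. In bulk tissue, fewer cells of a type and less RNA per cell cannot be told apart.

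A gene is called at an adjusted p under 0.05 in edgeR's quasi-likelihood test, with adjustment over 14469 genes. Over the vehicle and chow groups, 10 of the 28 members that passed the filter were called, all higher in vehicle and 0 lower; 19.3% of all genes tested were called in this comparison, 11.1% of all genes higher and 8.16% lower. The called members were Adam8, Adam11, Adam15, Adam19, Adamts2, Adamts4, Adamts5, Adamts9, Adamts15 and Adamtsl2. In OA against chow, 4 members rose and 0 fell (Adam8, Adam11, Adamts2 and Adamts15), beside 8.56% of all genes called and 6.33% called higher. In OA-NO2 against chow, Adam11 was the 1 member called, beside 0.684% of all genes called and 0.435% called higher. Members whose libraries all lay above the chow libraries numbered 15 in vehicle (20.4% of all genes), 10 in OA (16.7%) and 6 in OA-NO2 (12.3%). The 3 comparisons share the chow libraries.

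Leaving out 1 library moved these counts together with the share of all genes called. In vehicle over chow, 4 members were called without chow replicate 2 (9.81% of all genes), 6 without vehicle replicate 2 (10.3%), 6 without vehicle replicate 3 (8.12%) and 11 without OA replicate 3 (20.6%). In OA over chow, 1 member was called without OA replicate 1 (2.35% of all genes) or without chow replicate 2 (3.82%). In the same comparison 2 were called without OA replicate 2 (2.56%), chow replicate 1 (3.14%) or chow replicate 3 (5.87%), and 9 without OA replicate 3 (15%), with Adam10, Adamts5, Adamts9, Adamtsl1 and Adamtsl2 added.

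The filter kept 9 members with no chow library at its level, 0.573 CPM on the plain library totals without TMM (Adam8, Adam12, Adam19, Adam22, Adam33, Adamts4, Adamts12, Adamts15 and Adamtsl1), and these could pass only through the NASH-diet groups. Of the 10 members called in vehicle against chow, 4 were among them and 6 were among the 19 members with a chow library at that level. Of the 4 called in OA against chow, 2 were among them. The members wholly above the chow libraries also included such genes. They were Adam8, Adam12, Adam19, Adamts4, Adamts15 and Adamtsl1 in vehicle. In OA they were Adam8, Adam12, Adam19, Adamts4, Adamts12 and Adamts15, and in OA-NO2 Adam8 and Adam33. Among the 19, Adamts6 and Adamts9 had 2 such chow libraries and Adamts14, Adamtsl3 and Adamtsl5 had 1, too few to pass on chow alone. Over the 19 members the median log2 fold change was 0.24 in OA-NO2 over chow, 0.45 in OA over chow and 0.48 in vehicle over chow. The medians for all genes tested, taken without regard to their chow level, were 0.02, -0.01 and -0.01.

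**Figure D1:**
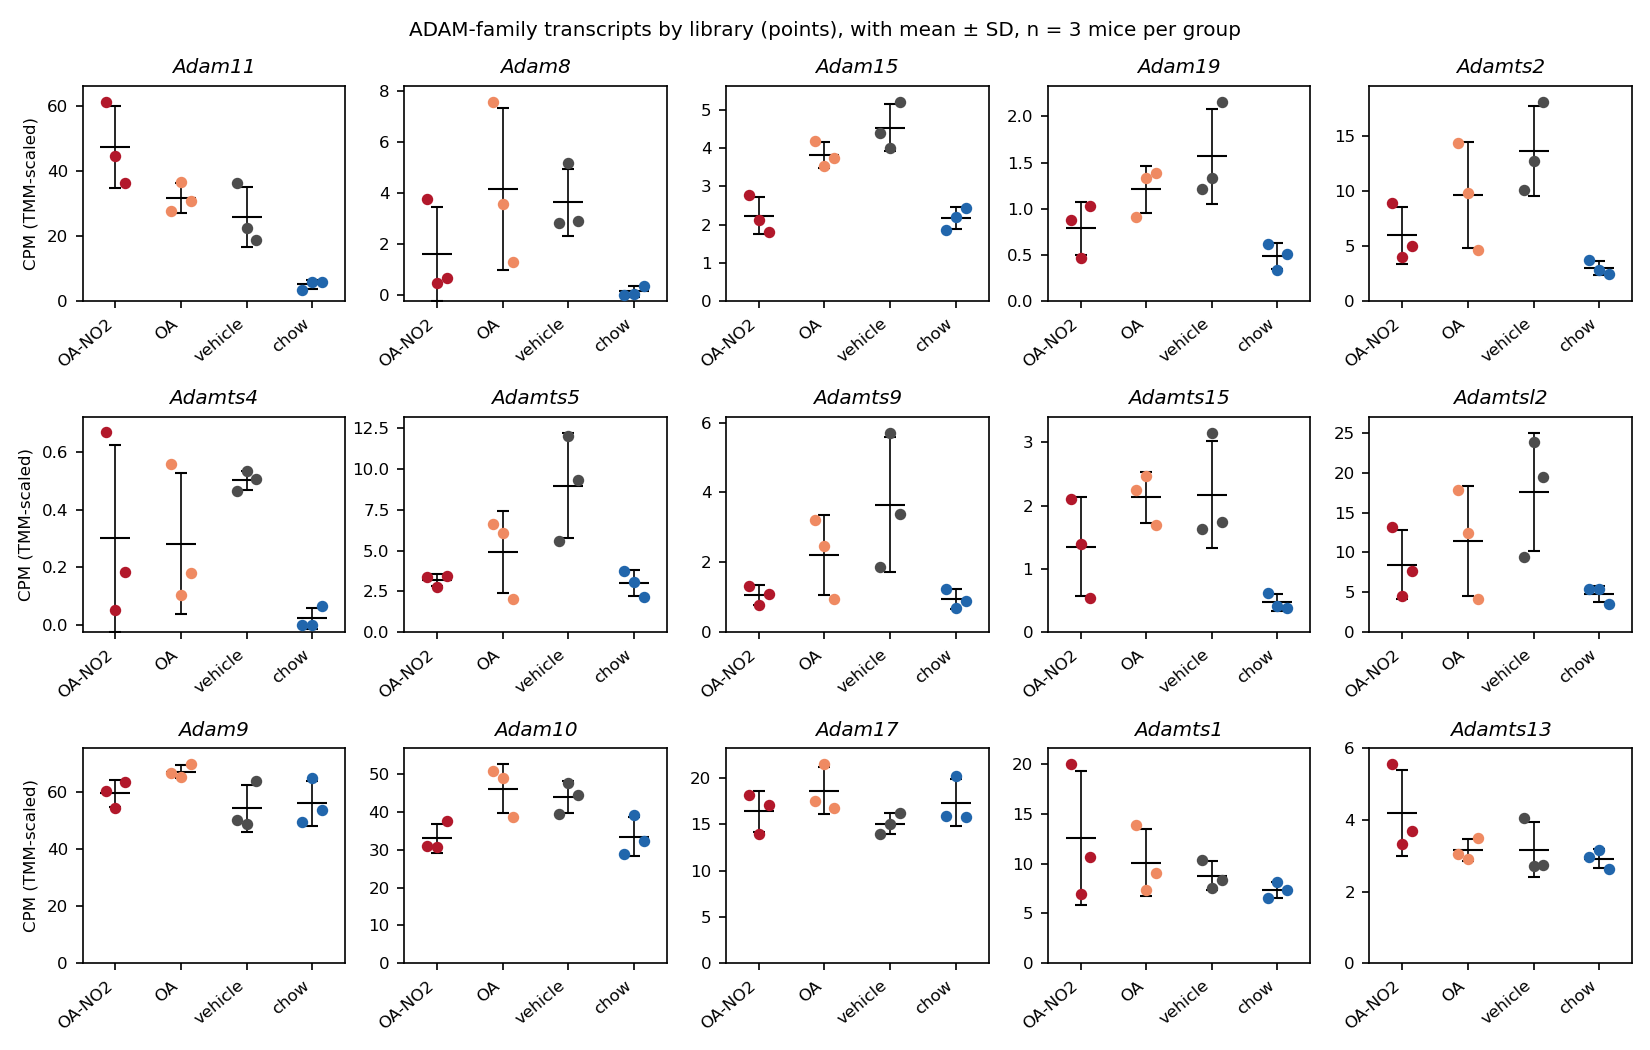
Each panel plots TMM-scaled CPM (vertical axis, linear, own scale per panel) for 1 gene in the OA-NO2, OA, vehicle and chow groups; points are libraries, the dash is the mean and the bar the SD (n = 3 mice). The 3 vehicle libraries lie above the 3 chow libraries in the first 2 lines of panels, while Adam9, Adam17, Adamts1 and Adamts13 in the bottom line overlap between vehicle and chow.

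Adam11 was the member with the lowest p in all 3 comparisons with chow. It encodes a membrane protein of the ADAM family that lacks the residues of a working protease and, in the mouse nervous system, binds LGI proteins at synapses. The gene (ENSMUSG00000020926) lies on chromosome 11 at chr11:102761439-102780262 on the plus strand of GRCm38, and none of its exon sequence is shared with another gene. Adam11 had 61.4, 44.9 and 36.5 CPM in OA-NO2 libraries, 27.7, 36.9 and 30.8 CPM in OA libraries, 36.4, 22.7 and 19.0 CPM in vehicle libraries, and 3.59, 6.06 and 5.95 CPM in chow libraries. All 9 libraries of mice on the NASH diet lay above all chow libraries. The log2 fold change was 3.15 ± 0.29 (SE) in OA-NO2 over chow (edgeR adjusted p = 0.000323), 2.57 ± 0.29 in OA over chow (adjusted p = 0.000916) and 2.28 ± 0.28 in vehicle over chow (adjusted p = 0.00131). These calls held in all 17 alternatives, the omission of each library included. Adam11 took 21.7%, 22.3% and 16.5% of all family counts in OA-NO2 libraries, and 2.36%, 3.13% and 3.73% in chow libraries. The sum of the 4 adipose markers in the table ran from 59.3 to 126 CPM in OA-NO2, from 9.53 to 81.3 in OA, from 12.7 to 31.8 in vehicle and from 2.43 to 4.52 in chow. The 1 of them that could be tested, Cfd, rose in each comparison with chow, Lep was at 0 in every OA-NO2 library, Plin1 in every OA library and both in every chow library. Their part in the Adam11 values was not tested.

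The 2 relatives of Adam11 without a working protease behaved otherwise in these libraries. Adam23 had mean CPM of 16.8 ± 3.67 in OA-NO2, 17.0 ± 4.71 in OA, 14.8 ± 5.63 in vehicle and 16.0 ± 6.18 in chow (SD, n = 3). Its log2 fold change in vehicle over chow was -0.13 ± 0.31 (edgeR adjusted p = 0.803), and Adam22, at under 1 CPM in every library, stood at 0.24 ± 0.47 (adjusted p = 0.76).

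Adamts2, the chief procollagen N-propeptidase, removes the amino-terminal propeptides of fibrillar collagens so that they can assemble. Its promoter is printed with those of Adamtsl2 and Adam8, because the 3 genes rose in vehicle over chow and stand for 3 different roles, collagen processing, matrix binding and shedding. Each is a window of 300 bases around the gene's start, 5′ to 3′ on the gene's strand, from RefSeq on GRCm38.p6. The capitals mark the GC box GGGCGG, the antioxidant response element core TGACNNNGC and the TATA box TATAAA, searched on both strands; within these 3 sequences hits of different motifs do not overlap.
Adamts2, chr11:50601835-50602134, plus strand: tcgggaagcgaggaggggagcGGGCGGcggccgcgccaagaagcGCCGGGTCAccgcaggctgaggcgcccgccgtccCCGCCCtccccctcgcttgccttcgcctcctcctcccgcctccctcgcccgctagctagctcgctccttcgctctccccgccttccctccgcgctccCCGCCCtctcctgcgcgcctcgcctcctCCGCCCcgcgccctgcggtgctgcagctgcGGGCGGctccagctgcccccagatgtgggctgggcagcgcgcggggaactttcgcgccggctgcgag
Adamtsl2, chr2:27079129-27079428, plus strand: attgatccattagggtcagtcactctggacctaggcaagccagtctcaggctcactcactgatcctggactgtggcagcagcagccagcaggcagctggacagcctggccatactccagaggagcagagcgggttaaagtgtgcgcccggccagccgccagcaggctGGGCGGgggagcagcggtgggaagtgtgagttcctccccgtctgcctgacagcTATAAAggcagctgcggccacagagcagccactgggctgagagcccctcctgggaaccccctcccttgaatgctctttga
Adam8, chr7:139992513-139992812, minus strand: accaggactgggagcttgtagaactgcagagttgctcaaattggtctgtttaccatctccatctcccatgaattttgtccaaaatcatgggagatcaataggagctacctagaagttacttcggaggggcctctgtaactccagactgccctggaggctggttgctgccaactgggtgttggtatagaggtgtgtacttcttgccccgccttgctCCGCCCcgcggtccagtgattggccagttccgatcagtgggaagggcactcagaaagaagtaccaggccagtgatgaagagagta
The Adamts2 window held 5 GC boxes and 1 antioxidant response element core, Adamtsl2 held 1 GC box and 1 TATA box, and Adam8 held 1 GC box. Of all 32851 promoters, 35.7% held a GC box, 12.4% the antioxidant response element core and 13.6% the TATA box. A match describes letters in the window and is not a binding site. The AP-1 motif TGANTCA, found in 7.81% of promoters, was not among the letters of the 3 windows. The promoter table held 25 promoters for 23 of the family genes.

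Adamts2 had 8.96, 4.04 and 5.07 CPM in OA-NO2 libraries, 14.4, 9.89 and 4.70 CPM in OA libraries, 10.2, 12.7 and 18.1 CPM in vehicle libraries, and 3.74, 2.82 and 2.50 CPM in chow libraries. Every library of mice on the NASH diet lay above every chow library, and the vehicle libraries also lay above the OA-NO2 libraries. Adamts2 rose by 2.22 ± 0.41 on the log2 scale in vehicle over chow (edgeR adjusted p = 0.00455), a call that held in all 17 alternatives, and by 1.72 ± 0.41 in OA over chow (adjusted p = 0.0227). The OA call was lost without OA replicate 1 (adjusted p = 0.114), without OA replicate 2 (0.0714) and without chow replicate 1, 2 or 3 (0.0542, 0.079 and 0.077). In OA-NO2 over chow the difference was 1.04 ± 0.42 (adjusted p = 0.206). Of the other procollagen N-propeptidases, Adamts14 was at 0.86 ± 0.61 in vehicle over chow (adjusted p = 0.336) and Adamts3 did not pass the filter.

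Proteoglycanases cleave aggrecan, versican and related core proteins, and 5 of them passed the filter. In vehicle over chow 4 were called higher (Adamts4, Adamts5, Adamts9 and Adamts15), beside 11.1% of all genes. Adamts15 alone was called in OA over chow, where 6.33% of all genes were called higher. Adamts4 and Adamts15 had no chow library at the filter's level and could pass only through the NASH-diet groups. Adamts15 had 2.11, 1.40 and 0.544 CPM in OA-NO2 libraries, 2.24, 2.46 and 1.69 CPM in OA libraries, 1.63, 3.14 and 1.73 CPM in vehicle libraries, and 0.624, 0.413 and 0.384 CPM in chow libraries. The OA and vehicle libraries lay above all chow libraries, and 1 OA-NO2 library lay among them. Adamts15 rose by 2.25 ± 0.51 in vehicle over chow (edgeR adjusted p = 0.0107), a call kept in all 17 alternatives, and by 2.24 ± 0.51 in OA over chow (adjusted p = 0.0184). The OA call was lost without OA replicate 1 (adjusted p = 0.063), OA replicate 2 (0.0695), chow replicate 2 (0.0709) or chow replicate 3 (0.0657).

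Adamts5, which together with Adamts4 is the main aggrecanase of cartilage, had 3.40, 2.75 and 3.44 CPM in OA-NO2 libraries, 6.63, 6.10 and 2.05 CPM in OA libraries, 5.59, 12.0 and 9.34 CPM in vehicle libraries, and 3.74, 3.10 and 2.18 CPM in chow libraries. Only the vehicle libraries were apart from the chow libraries, and OA replicate 3 was the lowest of the 12. The rise in vehicle over chow was 1.61 ± 0.40 (edgeR adjusted p = 0.0159), lost without vehicle replicate 2 (adjusted p = 0.0612), chow replicate 2 (0.0516) or chow replicate 3 (0.0557). Adamts9, which cleaves versican and aggrecan, had 1.34, 0.777 and 1.09 CPM in OA-NO2 libraries, 3.21, 2.46 and 0.963 CPM in OA libraries, 1.86, 5.70 and 3.38 CPM in vehicle libraries, and 1.25, 0.688 and 0.896 CPM in chow libraries. It rose by 2.00 ± 0.51 in vehicle over chow (edgeR adjusted p = 0.0174), lost without vehicle replicate 2 (0.0696) or chow replicate 2 (0.0749). In the annotation 12.0% of the exon length of Adamts9 is shared with genes on the opposite strand, and no source used here gives the strand setting of the counts.

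Adamts4 had 0.669, 0.0518 and 0.181 CPM in OA-NO2 libraries, 0.561, 0.103 and 0.181 CPM in OA libraries, 0.466, 0.533 and 0.507 CPM in vehicle libraries, and 0, 0 and 0.0640 CPM in chow libraries. The vehicle libraries were close together and above all chow libraries. Adamts4 had 32 counts in all in vehicle, against 1 in chow, a ratio of 18.3 with an exact 95% counting interval of 3.06 to 746 (edgeR adjusted p = 0.0382). Its call was lost when any of the 6 libraries of this comparison was left out (adjusted p from 0.0596 to 0.136). Adamts1, an inflammation-inducible member, had 19.97, 6.94 and 10.6 CPM in OA-NO2 libraries, 13.8, 7.38 and 9.09 CPM in OA libraries, 10.4, 7.57 and 8.37 CPM in vehicle libraries, and 6.55, 8.19 and 7.30 CPM in chow libraries. The groups overlapped, and the differences over chow were 0.76 ± 0.33 in OA-NO2, 0.45 ± 0.34 in OA and 0.25 ± 0.34 in vehicle (edgeR adjusted p = 0.242, 0.426 and 0.638).

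Of the 5 ADAMTS-like proteins, Adamtsl2 was called in vehicle over chow, beside 19.3% of all genes. Adamtsl2 binds fibrillin and a latent TGF-beta binding protein, and changes in its human gene cause geleophysic dysplasia. It had 13.2, 4.61 and 7.67 CPM in OA-NO2 libraries, 17.8, 12.4 and 4.15 CPM in OA libraries, 9.46, 23.8 and 19.5 CPM in vehicle libraries, and 5.46, 5.37 and 3.59 CPM in chow libraries. The vehicle libraries lay above all chow libraries, whereas OA-NO2 and OA each had a library within the chow range. The rise was 1.89 ± 0.51 in vehicle over chow (edgeR adjusted p = 0.0224), and it was lost without vehicle replicate 2 (0.0753), vehicle replicate 3 (0.0629) or chow replicate 1, 2 or 3 (0.0576, 0.0622 and 0.0707). Adamtsl1 was at 1.93 ± 0.67 (adjusted p = 0.06), called without OA replicate 1 (0.0484) or OA replicate 3 (0.0182), with no filter on low counts (0.0469), with 2 groups in the fit (0.0179), with library size alone (0.0155) and by DESeq2 (0.0401). Adamtsl4, a fibrillin-binding protein of the eye's lens suspension, was at 1.04 ± 0.31 in OA-NO2 over chow with no overlap of the groups (adjusted p = 0.113). Adamtsl3 and Adamtsl5 stood at 1.42 ± 0.77 and 0.19 ± 0.41 in vehicle over chow (adjusted p = 0.211 and 0.784).

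Markers of several cell types moved beside these matrix genes, the fibroblast and myofibroblast markers among them. Of the 9 that could be tested, 8 rose in vehicle over chow, and their summed level ran from 49.6 to 197 CPM in OA-NO2, from 80.6 to 447 in OA, from 198 to 541 in vehicle and from 32.5 to 45.5 in chow. Of 10 stellate cell markers, 4 rose in vehicle over chow, with sums from 287 to 376 CPM in OA-NO2, from 305 to 395 in OA, from 322 to 416 in vehicle and from 272 to 319 in chow. Of 7 cholangiocyte markers, 6 rose in vehicle over chow, where 11.1% of all genes were called higher. Their sums were 100.3, 53.9 and 82.0 CPM in OA-NO2 libraries, 412, 230.1 and 37.6 CPM in OA libraries, 78.8, 513 and 451 CPM in vehicle libraries, and 46.2, 32.8 and 29.7 CPM in chow libraries. OA replicate 3 and vehicle replicate 1 were the lowest of their groups in these sums, as they were for Adamts2, Adamts5, Adamts9, Adamts15 and Adamtsl2. Both libraries also stood lowest of their groups on the first principal component over all genes tested, at -13.48 and 22.46. The same order was therefore not particular to these genes and markers. The lists share genes: Spp1 is in the cholangiocyte list and in that of recruited macrophages. The fibroblast list holds Col1a1, Col1a2, Col3a1 and Timp1, which also stand in the lists of related genes given below. No marker of the 3 lists was at 0 in all libraries of a group. Their part in the rises of Adamts2, Adamts4, Adamts5, Adamts9, Adamts15 and Adamtsl2 was not tested.

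The ADAMs with a metalloprotease site include the general sheddases Adam10, Adam17 and Adam9. Adam10 starts Notch signalling and sheds cadherins, and Adam17 releases TNF and ligands of the EGF receptor. Adam10 had 30.9, 30.8 and 37.5 CPM in OA-NO2 libraries, 50.7, 48.9 and 38.6 CPM in OA libraries, 39.3, 47.6 and 44.3 CPM in vehicle libraries, and 28.9, 39.2 and 32.3 CPM in chow libraries. The vehicle libraries lay above the chow libraries, and the difference was 0.38 ± 0.16 (edgeR adjusted p = 0.105), called only with library size alone. Adam17 had 18.1, 13.9 and 17.1 CPM in OA-NO2 libraries, 17.5, 21.5 and 16.7 CPM in OA libraries, 13.9, 14.98 and 16.2 CPM in vehicle libraries, and 15.9, 20.2 and 15.8 CPM in chow libraries. The vehicle and chow libraries overlapped, with -0.21 ± 0.16 in vehicle over chow (adjusted p = 0.392). Adam9, a broadly expressed sheddase, had 60.5, 54.6 and 63.7 CPM in OA-NO2 libraries, 66.7, 65.3 and 70.0 CPM in OA libraries, 50.3, 49.0 and 63.9 CPM in vehicle libraries, and 49.8, 64.9 and 53.7 CPM in chow libraries. The difference in vehicle over chow was -0.05 ± 0.14 (adjusted p = 0.849), and with library size alone it turned to 0.47 (adjusted p = 0.0373), where the median over all genes was 0.508.

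Adam8, which leukocytes carry, had 3.76, 0.466 and 0.664 CPM in OA-NO2 libraries, 7.59, 3.59 and 1.32 CPM in OA libraries, 2.84, 5.17 and 2.92 CPM in vehicle libraries, and 0, 0.0688 and 0.384 CPM in chow libraries. Every library of mice on the NASH diet was above every chow library. Adam8 rose by 4.23 ± 1.02 in vehicle over chow (edgeR adjusted p = 0.0139) and by 4.44 ± 1.02 in OA over chow (adjusted p = 0.0184). With few counts in chow these folds are imprecise; the vehicle call was lost without chow replicate 2 (adjusted p = 0.0642), and the OA call without OA replicate 1 (0.0782), chow replicate 1 (0.0651) or chow replicate 2 (0.079). The OA-NO2 difference over chow was 3.09 ± 1.07 (adjusted p = 0.159).

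Adam15 had 2.78, 2.12 and 1.81 CPM in OA-NO2 libraries, 4.18, 3.54 and 3.73 CPM in OA libraries, 4.38, 3.997 and 5.20 CPM in vehicle libraries, and 1.87, 2.20 and 2.43 CPM in chow libraries. Vehicle and OA libraries lay above all chow libraries, and OA-NO2 libraries overlapped them. Adam15 rose by 1.04 ± 0.24 in vehicle over chow (edgeR adjusted p = 0.011), lost without vehicle replicate 3 (0.0507). In OA over chow it was at 0.79 ± 0.24 (adjusted p = 0.0558), which passed the threshold without OA-NO2 replicate 1 (0.0385) and with library size alone (0.00992). In the annotation 20.6% of the exon length of Adam15 is shared with an antisense gene.

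Adam19, which can release neuregulin, had 0.875, 0.466 and 1.03 CPM in OA-NO2 libraries, 0.917, 1.33 and 1.38 CPM in OA libraries, 1.21, 1.33 and 2.16 CPM in vehicle libraries, and 0.624, 0.344 and 0.512 CPM in chow libraries. It rose by 1.72 ± 0.43 in vehicle over chow (edgeR adjusted p = 0.0173), lost without vehicle replicate 3 (0.0799) or chow replicate 2 (0.0798), and 10.1% of its exon length is shared with antisense genes. Adam12 and Adam33 were at 1.32 ± 0.59 and 1.58 ± 0.73 in vehicle over chow (adjusted p = 0.133 and 0.143). Recruited macrophage markers rose in vehicle over chow in 8 of 9 cases, with sums from 84.3 to 205 CPM in OA-NO2, from 92.1 to 670 in OA, from 198 to 726 in vehicle and from 45.6 to 51.5 in chow. In the same comparison 0 of 5 neutrophil markers and 0 of 6 B and plasma cell markers were called. Of 8 tested T and NK cell markers 2 rose and 0 fell, and of 8 Kupffer cell markers 2 rose and 3 fell. For all genes, 11.1% were called higher and 8.16% lower. No marker of these lists was at 0 in all libraries of a group, and their part in the Adam8, Adam15 and Adam19 values was not tested.

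The other ADAMTS proteases held 0 called members of 5 in vehicle over chow, beside 19.3% of all genes called, a share at which so short a list can hold 0. Adamts13, which cleaves von Willebrand factor and is made in the liver, had 5.56, 3.32 and 3.68 CPM in OA-NO2 libraries, 3.06, 2.92 and 3.49 CPM in OA libraries, 4.05, 2.72 and 2.75 CPM in vehicle libraries, and 2.96, 3.17 and 2.63 CPM in chow libraries. The OA-NO2 libraries lay above the chow libraries, at 0.52 ± 0.26 (edgeR adjusted p = 0.297). Adamts6, Adamts7 and Adamts10 ran from 0.03 to 0.53 in vehicle over chow, with adjusted p from 0.301 to 0.969. Adamts12 had 47 counts in vehicle and 3 in chow, a ratio of 8.97 (counting interval 2.89 to 45.0, edgeR adjusted p = 0.144). Vehicle replicate 3 held 38 of the 47 counts, and vehicle replicates 1 and 2 held 7 and 2. The groups overlapped, with vehicle replicate 2 at 0.107 CPM and chow replicate 1 at 0.156 CPM.

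The 15 members below the filter held 2 to 56 counts over the 12 libraries. Most belong to the reproductive-tract ADAMs, of which 0 of 11 in the table passed. Adam1a and Adamts16 were those with a library of at least 10 counts.

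**Figure D2:**
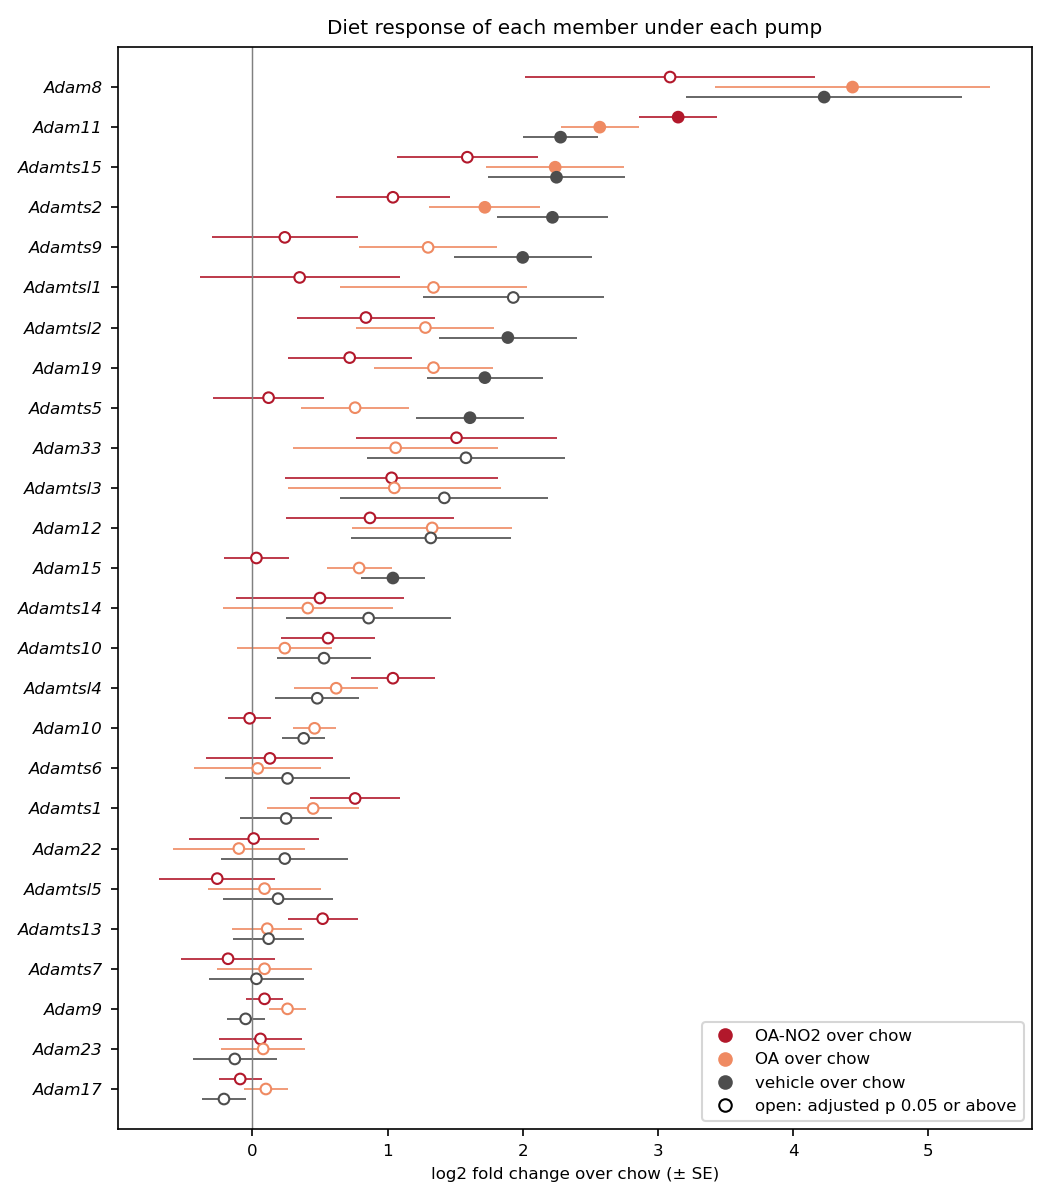
Log2 fold change over chow (horizontal axis, ± SE) of each member that passed the filter, in OA-NO2, OA and vehicle livers, with filled points for adjusted p under 0.05; Adamts4 and Adamts12 are left out because chow held 1 and 3 counts. Adam11 is filled in all 3 comparisons, while Adamts5 and Adamts9 are filled in vehicle over chow alone.

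Set per length, the levels of the members that passed the filter differed widely. Adam9 led in every group, at 14.5 ± 1.12 CPM per kb of exon in OA-NO2, 16.4 ± 0.587 in OA, 13.2 ± 2.02 in vehicle and 13.6 ± 1.91 in chow (SD, n = 3). Adam11 stood at 8.39 ± 2.23 in OA-NO2, 5.61 ± 0.823 in OA, 4.59 ± 1.62 in vehicle and 0.917 ± 0.246 in chow, which is rank 2 in OA-NO2, rank 3 in OA and in vehicle and rank 5 in chow. Adam10 was at 6.72 ± 0.779 in OA-NO2, 9.37 ± 1.33 in OA, 8.90 ± 0.857 in vehicle and 6.80 ± 1.07 in chow. Of the 27 neighbouring pairs in this order, 23 overlapped in OA-NO2, OA and vehicle and 22 in chow. Adam11 over Adam10 in OA-NO2 and Adam11 over Adam23 in chow were among the overlapping pairs, while Adam10 over Adam11 in OA and vehicle was not.

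**Figure D3:**
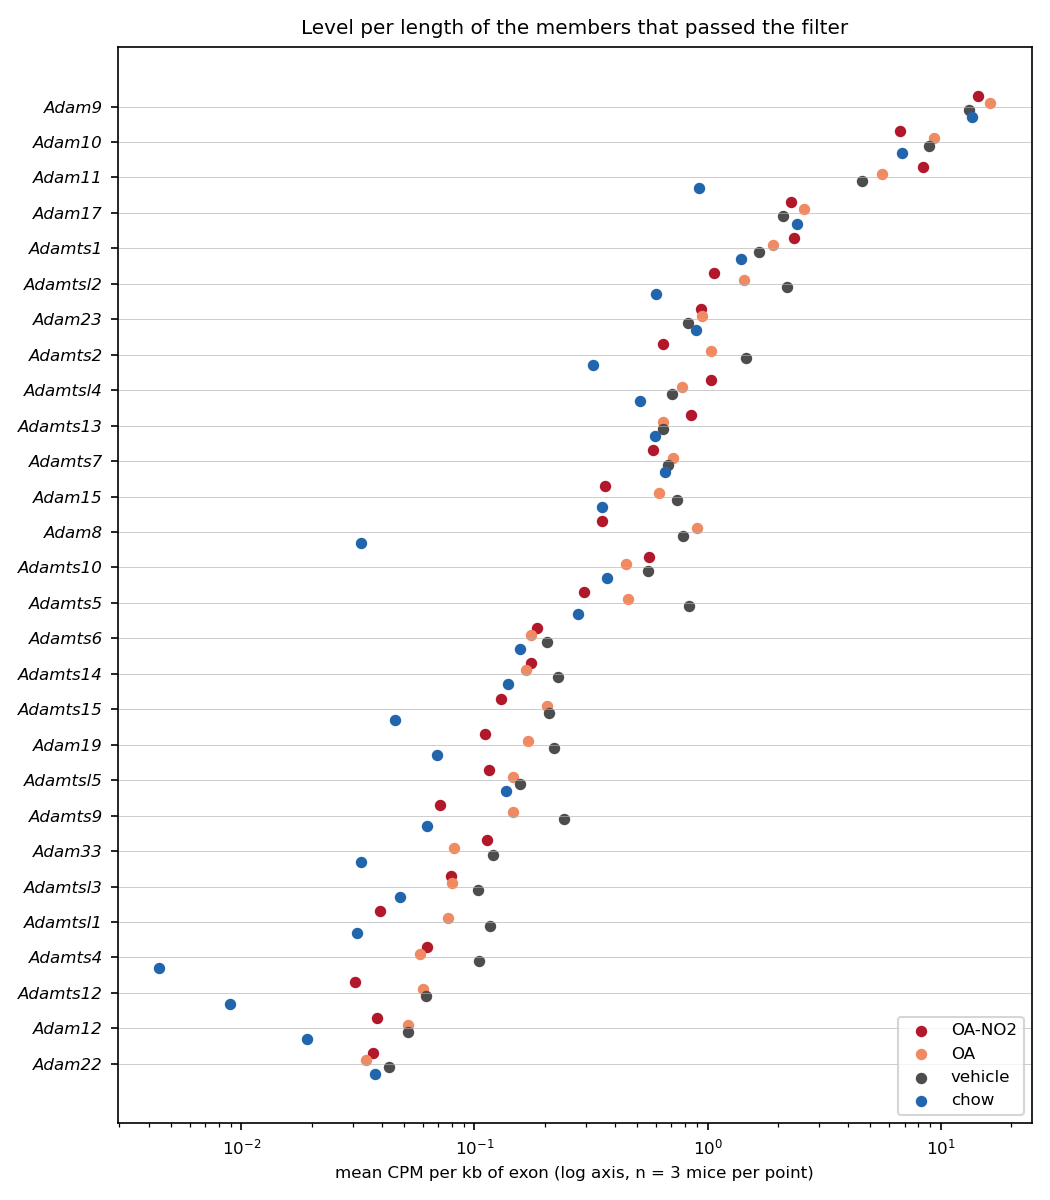
Mean CPM per kb of exon (horizontal log axis) of the 28 members that passed the filter, 1 point per group (n = 3 mice). Adam9 stands first in all 4 groups, and Adam11 is at rank 2 in OA-NO2, where its libraries overlap those of Adam10, and rank 5 in chow.

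The pumps were then set against each other on the same diet. In OA-NO2 against vehicle, 0 members were called by edgeR, beside 0.0207% of all genes. Without OA replicate 3, 1 member was called, beside 1.04% of all genes. With all libraries, 9 members had an unadjusted p under 0.05, 1 higher (Adam11) and 8 lower (Adam10, Adam15, Adam19, Adamts2, Adamts5, Adamts9, Adamtsl1 and Adamtsl2), beside 15.8% of all genes. The groups did not overlap, lower in OA-NO2, for 7 of these (Adamtsl2 overlapped), beside 10.5% of all genes. DESeq2 called 3 members, Adam15, Adamts5 and Adamts9, and 287 genes in all, against 3 genes in all by edgeR. Adam15 was at -1.01 ± 0.23 (95% interval -1.50 to -0.52, edgeR adjusted p = 0.138), and DESeq2 gave an adjusted p of 0.0171. Adamts5 was at -1.49 ± 0.38 (-2.31 to -0.67, adjusted p = 0.156), called without OA replicate 3 (0.0317), with no filter (0.0385) and by DESeq2 (0.0186). Adamts9 was at -1.76 ± 0.47 (-2.77 to -0.75, adjusted p = 0.159), called by DESeq2 (0.0295). Adam11 was at 0.87 ± 0.25 (0.32 to 1.42, adjusted p = 0.167), with all 3 OA-NO2 libraries above all vehicle libraries, as for Adamtsl4 (9.18% of all genes had such a gap). The median over the 19 members with a chow library at the filter's level was -0.21. It was 0.02 for all genes tested, taken without regard to their chow level.

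In OA-NO2 against OA, which differ by the nitro group at the same dose, 0 members were called by edgeR or DESeq2, beside 0.00691% of all genes by edgeR. Without OA replicate 3 the edgeR share was 0.875% of all genes, with 0 members called. An unadjusted p under 0.05 was found for 4 members (Adam11 higher; Adam10, Adam15 and Adamts9 lower), beside 12% of all genes. All OA-NO2 libraries lay below all OA libraries for 3 members, Adam9, Adam10 and Adam15 (7.37% of all genes). Adam11 was at 0.58 ± 0.25 (95% interval 0.04 to 1.13, edgeR adjusted p = 0.395), Adam10 at -0.48 ± 0.16 (-0.82 to -0.14, adjusted p = 0.338) and Adam15 at -0.76 ± 0.23 (-1.26 to -0.27, adjusted p = 0.313). In OA against vehicle, 0 members and 0% of all genes were called by edgeR, and DESeq2 called 0 members; Adamts5 had an unadjusted p under 0.05 (-0.86 ± 0.37), beside 3.9% of all genes. All OA libraries lay above all vehicle libraries for Adam9 and Adam17 (7.81% of all genes). A missed threshold does not show that the pumps acted alike: for Adam17 the interval in OA-NO2 over OA ran from -0.53 to 0.16.

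**Figure D4:**
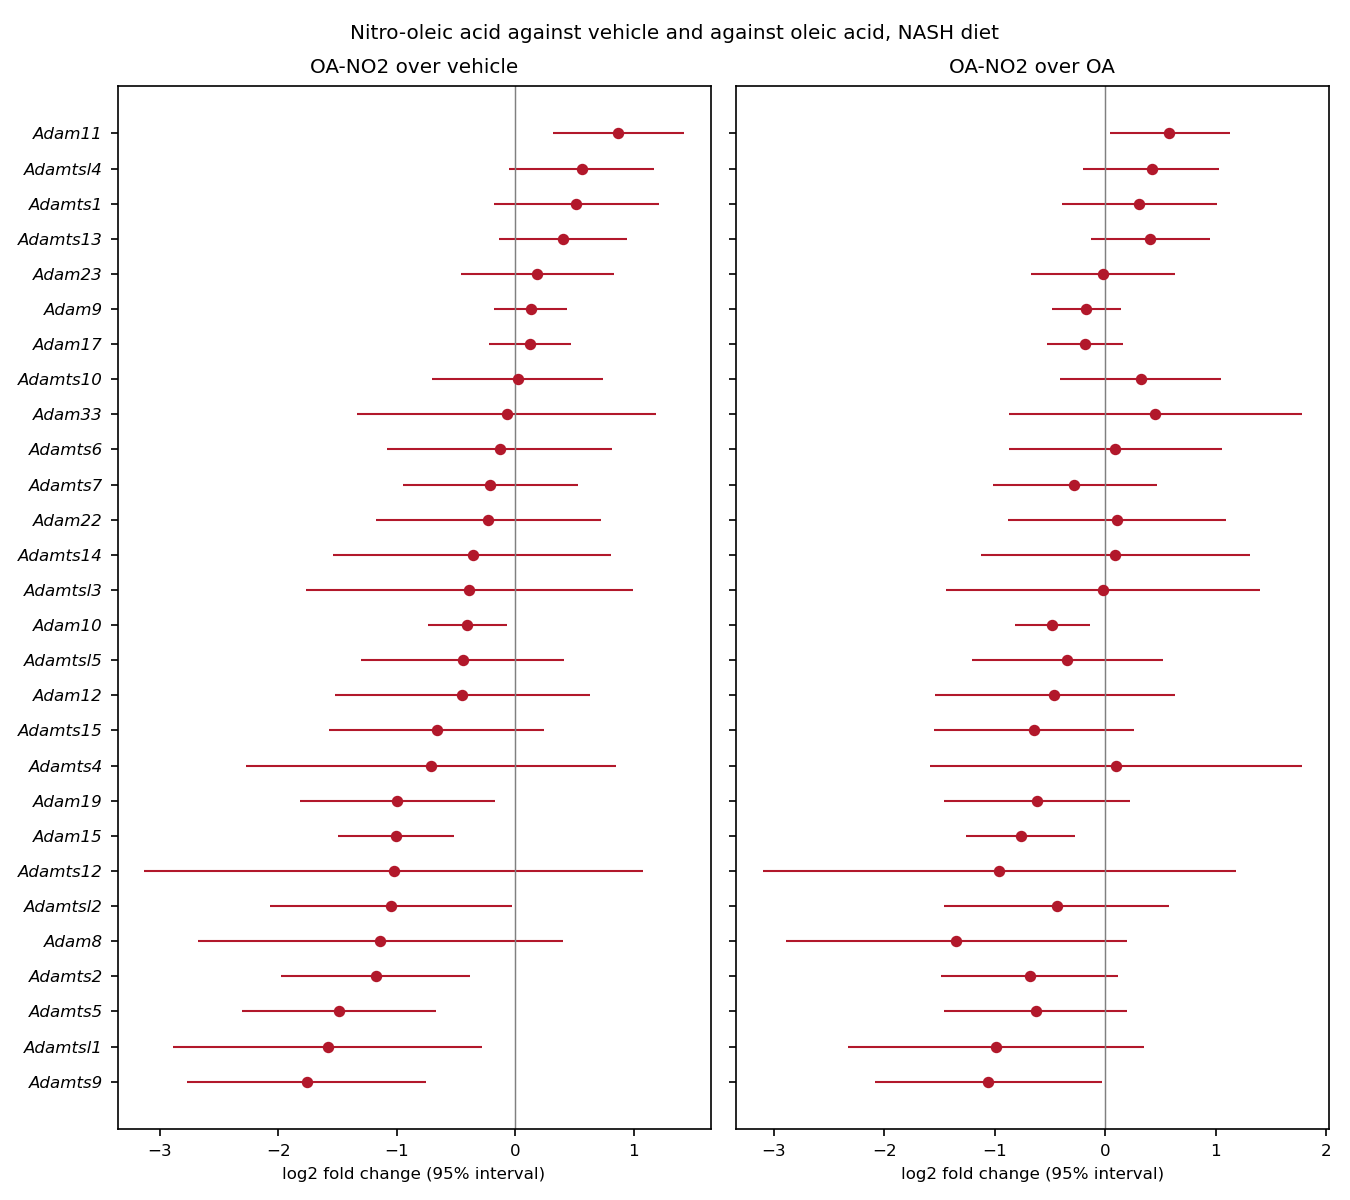
Log2 fold change with its 95% interval (horizontal axis) of the 28 members in OA-NO2 over vehicle and in OA-NO2 over OA. Adam11 is highest in both panels, and Adamts9 and Adamtsl1 are among the lowest.

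Genes around the family were read from lists. Of 20 tested inhibitors and processing partners, 5 rose and 1 fell in vehicle over chow, beside 11.1% of all genes called higher and 8.16% called lower. Among those that rose were Rhbdf1 (iRhom1, which helps Adam17 mature) at 1.56 ± 0.32 (edgeR adjusted p = 0.00678) and Timp2 (an inhibitor of metalloproteases) at 1.24 ± 0.31 (adjusted p = 0.0172). Timp1 had 6.05 ± 2.71 CPM in vehicle, against 1 count over the chow libraries (adjusted p = 0.00342). Of 27 tested genes whose proteins were listed as shed by ADAM10 or ADAM17, 10 rose and 3 fell, beside the same shares of all genes. Shedding itself was not measured here. Cxcl16 (a membrane chemokine) was at 1.57 ± 0.22 (adjusted p = 0.00209) and Axl (a receptor kinase) at 1.31 ± 0.20 (adjusted p = 0.00253). Cd163, a scavenger receptor of macrophages whose human protein is shed by ADAM17, was the 1 gene of these lists called between pumps. Its mean was 18.4 ± 3.81 CPM in OA-NO2, 1.35 ± 0.709 in OA, 0.638 ± 0.341 in vehicle and 16.7 ± 1.90 in chow, and it was 4.85 ± 0.38 higher in OA-NO2 over vehicle (adjusted p = 9.81e-05) and 3.76 ± 0.35 higher in OA-NO2 over OA (adjusted p = 0.00085).

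Of the 4 EGF receptor family genes, Egfr, whose ligands Adam17 releases, fell by 2.19 ± 0.30 in vehicle over chow (edgeR adjusted p = 0.00207), by 1.55 ± 0.30 in OA over chow (adjusted p = 0.00858) and by 1.44 ± 0.29 in OA-NO2 over chow (adjusted p = 0.0469). Of 14 tested matrix substrates and partners of ADAMTS proteins, 11 rose and 0 fell in vehicle over chow, beside 11.1% of all genes called higher. In OA over chow 8 rose (6.33% of all genes), and in OA-NO2 over chow 0 rose (0.435% of all genes). The fibrillar collagen gene Col1a1 was at 5.05 ± 0.85 in vehicle over chow (edgeR adjusted p = 0.00338) and Col3a1 at 3.83 ± 0.65 (adjusted p = 0.00359). In OA-NO2 over chow, Col1a1 was at 3.44 ± 0.83 (edgeR adjusted p = 0.0695) and Col3a1 at 1.95 ± 0.62 (adjusted p = 0.133).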

How the data were processed

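Liver RNA-seq of 12 mice was read from a table of whole-number counts per gene that the authors deposited, not normalised. Per the labels' protocols, RNA was extracted with Trizol, libraries were made with a KAPA mRNA HyperPrep kit and sequenced as paired reads, and adaptors were trimmed by Trimmomatic 0.35. The submitters' processing notes name the build GRCm38, the aligner HISAT2 2.1.0, HTSeq and SAMtools 1.2. The annotation release, strand setting and handling of multi-mapping reads were not given in the sources used here; coordinates and exon lengths are from GENCODE M21, 1-based.

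Symbols were found for 24914 genes; the 69 genes without one held 0.0143% of counts. Genes were kept with edgeR's filter (minimum count 10, minimum total 15), leaving 14469. All 12 libraries entered 1 quasi-likelihood fit in edgeR 4.0.16 (limma 3.58.1, R 4.3.3) with TMM scaling and 1 coefficient per group, and Benjamini-Hochberg adjustment ran over all genes tested. SE is the absolute log2 fold change over the square root of F. Common biological coefficient of variation was 0.226. Counts of 3 or fewer in a group give a ratio with an exact counting interval, which covers counting error only. In simulated vehicle-over-chow data on 14469 genes, 58% of 100 genes changed 2-fold and 99% of 100 changed 4-fold were recovered, with 4 false calls. The changed genes had a mean above 1 CPM, and every gene was given the common variation of 0.226. The recovery of members at lower levels or with a wider spread was not simulated. All replicate pairs differed beyond sampling noise.

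Every member that passed the filter is named. Members called in any comparison, and Adam9, Adam10, Adam17, Adamts1 and Adamts13 for their roles, are given by library; members below the filter are named where a library holds 10 counts. Of the related lists, the 3 with the lowest p in vehicle over chow and those called between pumps could be named. The members and lists were chosen with earlier results of these data known. Alternatives were RLE size factors, library size alone, no filter, DESeq2 1.42.0, only the 2 groups compared and leaving out each library.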

Additional observations from a re-analysis of the deposited data

How the results depend on the processing

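Calls were recomputed with RLE size factors, library size alone, no filter on low counts, DESeq2, a fit of the 2 groups compared alone, and without each of the 12 libraries in turn. No paired analysis was possible because the labels give ear tags and no replicate numbers shared between groups. Of 2746 single-gene values, 2567 kept direction and side of the threshold, 32 lost a call, 30 gained one, 116 uncalled values changed sign, and Adam9 in vehicle over chow turned to 0.47 with library size alone. The cause was not tested, except that library size alone puts the median over all genes at a log2 fold change of 0.508 in vehicle over chow, 0.419 in OA over chow and 0.342 in OA-NO2 over chow.

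With library size alone the called members numbered 16, 12 and 2 in vehicle, OA and OA-NO2 over chow, and all genes called 5758, 3776 and 1127, of which 5510, 3649 and 1099 were higher and 248, 127 and 28 lower. With 2 groups alone, all genes called were 776 in OA over chow, 53 in OA-NO2 over chow and 62 in OA-NO2 over vehicle. With no filter, 262 genes were called in OA-NO2 over chow, 151 in OA-NO2 over vehicle (1 member) and 10 in OA-NO2 over OA. DESeq2 called 653 genes in OA-NO2 over chow, 287 in OA-NO2 over vehicle (3 members) and 50 in OA-NO2 over OA.

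Leaving out 1 library, called members ranged from 4 (without chow replicate 2) to 11 in vehicle over chow, with 6 without vehicle replicate 2 or 3, and from 1 (without OA replicate 1 or chow replicate 2) to 9 (without OA replicate 3) in OA over chow, with 2 without OA replicate 2, chow replicate 1 or chow replicate 3. They stayed at 1 in OA-NO2 over chow, at 0 in OA over vehicle and in OA-NO2 over OA, and reached 1 in OA-NO2 over vehicle (without OA replicate 3), against 0 otherwise. All genes called ranged from 1200 to 3100 in vehicle over chow, 347 to 2232 in OA over chow, 15 to 284 in OA-NO2 over chow, 0 to 0 in OA over vehicle, 1 to 155 in OA-NO2 over vehicle and 1 to 130 in OA-NO2 over OA. The counts 2232, 284, 155 and 130 were all reached without OA replicate 3. Depth limits the members at under 1 CPM, and chow replicate 1 most.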
